A study of Homo sapiens with 12 samples.

Results

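K562 is a human chronic myeloid leukaemia cell line that grows in suspension and expresses part of the erythroid programme. A pair of control states of this line was compared: 2 cell pools with the scrambled control guide, here called sgSCR, and 3 clones labelled parental. The parental clones are the study's controls for 3 clones in which CRISPR/Cas9 knocked out the mutant ASXL1 allele. The sgSCR pools are its controls for 2 FOXK1 and 2 FOXK2 knockout pools. The labels give the genotype of these pools as SCR knockout and report no edit of ASXL1, FOXK1 or FOXK2 in either group, so by the labels both carry the mutant ASXL1 allele. The labels give no sequence for the scrambled guide, no way in which it was delivered and no time since delivery, and do not say whether the pools and the clones came from one culture. A clone grows from a single cell, while a pool holds many, so the groups differ in guide, in culture type and in the deposited table that holds them. These differences cannot be told apart.

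Genes were included when they reached 1 FPKM (fragments per kilobase of transcript, scaled to the size of the library, the unit of the deposited tables) in at least 2 of the 5 libraries, which held for 14017 of the 58233 listed genes. Heat shock factor binds paired GAA repeats in promoters and induces chaperones, which refold damaged proteins. Immediate early genes answer growth and stress signals within minutes. The integrated stress response slows translation and, through the factor ATF4, induces enzymes that make serine, asparagine and other amino acids. In K562, globin and red cell membrane genes mark how far the cells have moved along the erythroid path.

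The summed FPKM ran from 899097 to 961495 over the 5 libraries, and 13510 to 13681 genes reached 1 FPKM in each. All 18 K562 markers examined, among them GATA1, TAL1, KLF1, HBG2, BCR and ABL1, were at 1 FPKM or more in all 5 libraries. CDKN2A, CDKN2B and MTAP, neighbours in a region that K562 has lost, did not exceed 0.225 FPKM. The depth of the libraries is unknown, since the tables give FPKM and no counts. Of the markers of other cells, 6 of 8 lymphoid, 6 of 7 monocyte and granulocyte, and 5 of 8 adherent cell markers stayed under 1 FPKM in all 5 libraries, among them MS4A1 and ELANE at 0. Among the exceptions, CDH1 passed 1 FPKM in 2 clones and in neither pool. CD3D, which encodes a T cell receptor subunit, was at 66.98, 52.7 and 50.7 FPKM in the clones and 34.4 and 30.9 in the pools (adjusted p = 0.0560). The lymphoid markers summed to 56.2 to 70.7 FPKM in the clones and 35.2 to 37.6 in the pools, and the part of other cells in the results was not tested.

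The comparison sets the study's scrambled guide control beside its unedited control. With limma on log2(FPKM + 1), 127 genes (0.906%) were called higher and 115 (0.820%) lower in the sgSCR pools at a Benjamini-Hochberg adjusted p under 0.05, together 1.73% of the 14017 genes tested. By 2-fold or more, 22 rose and 14 fell. The adjusted p-values of the risen genes ran from 0.0131 to 0.0490 and those of the fallen genes from 0.0279 to 0.0494, a narrow band under the threshold of 0.05. At an unadjusted p under 0.05, 1772 genes were higher and 1642 lower. In 6213 genes (44.3%) the groups did not overlap: both pools lay above all 3 clones in 3228 (23.0%) and below in 2985 (21.3%).

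The number of calls depended on single libraries. Without parental replicate 3 there were 125 higher and 123 lower, and 149 of the 242 called genes were called again. Leaving out parental replicate 1 gave 3 higher and 1 lower, and leaving out parental replicate 2 gave 0 and 3. Without sgSCR replicate 1 or without sgSCR replicate 2 no gene passed in either direction, at unadjusted counts of 993 higher and 1035 lower, and of 973 and 851. These fits leave 1 pool, so the spread comes from the clones alone and the lone pool is assumed to vary like them. The log2 difference of HSPA1A changed little, at 1.20 to 1.29 over all 16 alternatives, and that of KLF1 was 0.46 to 0.51. Other called genes moved further: VIL1 ran from -1.65 to -1.16, SDHAF4 from -1.22 to -0.82 and MXD3 from -1.12 to -0.78. All 242 called genes kept their sign in every one of these 5 fits. Where both pools lie on the same side of all clones, leaving out a library cannot change the sign. For such genes the kept sign is no check of the call. The calls were also lost with no filter on low values, where 1 higher and 0 lower remained among 27162 genes, and with no variance trend in the model, with 1 and 0. These limits hold for every call below. An exact permutation test of 3 against 2 libraries has 10 splits. Its two-sided p was taken as 2 times the smaller one-sided p, so it could not go below 0.2.

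**Figure D1:**
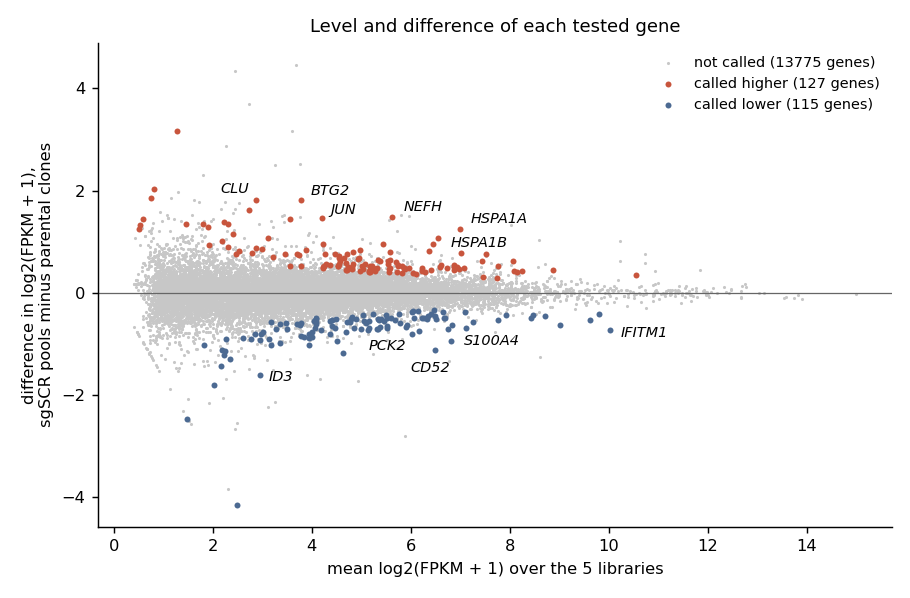
Each point is 1 of 14017 genes; the horizontal axis is its mean log2(FPKM + 1) over the 5 libraries and the vertical axis the difference between sgSCR pools and parental clones on the same scale. The 127 genes called higher and the 115 called lower lie on both sides of 0 over the whole range of levels, with HSPA1A and HSPA1B above at high levels and CD52 and S100A4 below.

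Chaperone transcripts of the heat shock response were higher in the pools. Of the 23 heat shock genes tested, 5 rose, against 0.906% of all genes tested, 0 fell, and 18 had both pools above all 3 clones (78.3%, against 23.0% of all genes tested). The list's median log2 difference was 0.30, against 0.0033 over all tested genes. In bulk RNA, more cells of a kind and more RNA per cell cannot be told apart. HSPA1A (ENSG00000204389, chromosome 6, 31815464 to 31817946, GRCh38), which encodes the inducible cytosolic chaperone HSP70, was at 83.3, 88.7 and 93.7 FPKM in the 3 clones and at 212 and 211 in the 2 pools. The pools held more than every clone and differed little from each other (log2 difference 1.25, SE 0.065, adjusted p = 0.0131). HSPA1B (ENSG00000204388, chromosome 6, 31827735 to 31830255) encodes the same protein and was at 66.4, 69.2 and 68.9 FPKM in the clones and 145 and 143 in the pools (log2 difference 1.07, SE 0.052, adjusted p = 0.0131). The copies are nearly identical in sequence, so reads may be split between them, but their sum went from 157 ± 6.53 (SD, n = 3) to 356 ± 2.80 (n = 2) FPKM, a ratio of 2.27. HSPH1 encodes HSP110, which exchanges the nucleotide of HSP70. It stood at 30.3, 31.8 and 35.1 FPKM in the clones and 65.04 and 61.7 in the pools (log2 difference 0.95, SE 0.082, adjusted p = 0.0338).

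The J-domain cochaperones, which hand clients to HSP70, rose too. DNAJA1 was at 99.3, 103 and 108 FPKM in the clones and 176 and 177 in the pools (log2 difference 0.77, SE 0.056, adjusted p = 0.0279). DNAJB1 was at 43.2, 44.3 and 47.9 in the clones and 66.01 and 66.4 in the pools (log2 difference 0.55, SE 0.067, adjusted p = 0.0355). DNAJB6, named after its values were seen, rose from 91.9 ± 4.36 to 128 ± 9.93 FPKM (adjusted p = 0.0459). ZFAND2A, an arsenite- and heat-inducible gene of the proteasome, lies outside the list and was at 5.16, 6.32 and 4.901 FPKM in the clones and 12.1 and 13.1 in the pools (log2 difference 1.08, SE 0.13, adjusted p = 0.0355). In each of these 4 genes both pools lay above all clones.

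Other chaperones were higher in the pools but did not pass. HSPA8, the constitutive HSP70, was at 1209, 1055 and 796 FPKM in the clones and 1531 and 1565 in the pools (adjusted p = 0.105). The clones were far apart for this gene, and both pools lay above them. HSP90AA1, the inducible HSP90, was at 289, 368 and 439 FPKM in the clones and 529 and 526 in the pools (adjusted p = 0.126), while its constitutive counterpart HSP90AB1 was at 2233 ± 45.7 in the clones and 2190.4 ± 30.6 in the pools with the groups overlapping. HSF1, the heat shock factor itself, went from 82.3 ± 4.29 to 99.7 ± 2.42 FPKM (adjusted p = 0.0830). CRYAB, a small heat shock protein gene, was the only member with both pools below the clones, at 4.72, 7.24 and 7.11 FPKM in the clones and 3.97 and 2.695 in the pools (adjusted p = 0.116).

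The 23 heat shock genes together held 0.643% ± 0.0158 of the summed FPKM in the clones (SD, n = 3) and 0.788% ± 0.0158 in the pools (n = 2). The shares did not overlap, which gives the smallest exact two-sided permutation p of 0.2. Of the 5 called members, 2 were called without parental replicate 1 and 5 without parental replicate 3. None was called without parental replicate 2, sgSCR replicate 1 or sgSCR replicate 2, and the median stayed between 0.28 and 0.40 over all 16 alternatives run.

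The promoters of these genes are shown because heat shock factor recognises GAA repeats that face each other. The sequences are the 250 bases before the start of the gene in RefSeq (GRCh38.p14), 5′ to 3′ on the gene's strand, with each match to GAANNTTC or TTCNNGAA in capitals. Each motif is its own reverse complement, so a match stands on both strands. At least 1 of the motifs was found in 11.6% of the 35116 RefSeq promoters of this length.
HSPA1A, chr6:31815293-31815542, plus strand: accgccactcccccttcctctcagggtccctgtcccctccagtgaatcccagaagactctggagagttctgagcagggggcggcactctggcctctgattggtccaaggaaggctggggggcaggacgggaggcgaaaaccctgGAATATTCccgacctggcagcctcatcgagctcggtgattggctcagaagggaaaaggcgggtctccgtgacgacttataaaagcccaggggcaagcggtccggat
HSPA1B, chr6:31827488-31827737, plus strand: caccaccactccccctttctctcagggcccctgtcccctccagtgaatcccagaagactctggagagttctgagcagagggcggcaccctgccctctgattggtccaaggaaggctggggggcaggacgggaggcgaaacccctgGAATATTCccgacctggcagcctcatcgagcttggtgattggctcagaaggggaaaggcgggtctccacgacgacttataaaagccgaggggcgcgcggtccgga
DNAJA1, chr9:33025023-33025272, plus strand: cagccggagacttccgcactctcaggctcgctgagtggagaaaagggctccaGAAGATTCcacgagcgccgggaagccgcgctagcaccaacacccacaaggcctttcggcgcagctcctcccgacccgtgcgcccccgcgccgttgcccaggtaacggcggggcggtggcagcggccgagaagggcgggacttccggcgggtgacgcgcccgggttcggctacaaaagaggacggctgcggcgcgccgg
DNAJB1, chr19:14518398-14518647, minus strand: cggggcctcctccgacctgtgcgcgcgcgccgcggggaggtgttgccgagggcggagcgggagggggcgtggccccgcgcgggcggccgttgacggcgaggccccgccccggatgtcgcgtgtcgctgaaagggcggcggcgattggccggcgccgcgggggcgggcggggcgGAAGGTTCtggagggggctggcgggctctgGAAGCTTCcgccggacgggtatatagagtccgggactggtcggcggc
ZFAND2A, chr7:1160197-1160446, minus strand: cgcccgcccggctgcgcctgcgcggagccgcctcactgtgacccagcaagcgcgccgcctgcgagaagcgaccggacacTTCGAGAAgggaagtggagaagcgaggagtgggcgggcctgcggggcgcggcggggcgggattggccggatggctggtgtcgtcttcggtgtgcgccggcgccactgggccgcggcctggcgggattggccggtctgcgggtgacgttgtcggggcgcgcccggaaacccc
The match in HSPA1A began 106 bases before the start and that in HSPA1B 105 bases before. DNAJB1 has 3 starts in RefSeq, of which the one shown held 2 matches, at 77 and 47 bases, and the others none. The matches of DNAJA1 and ZFAND2A began 198 and 171 bases before the start, and HSPH1 had none in this window. A match describes the letters and is no measured binding site.

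**Figure D2:**
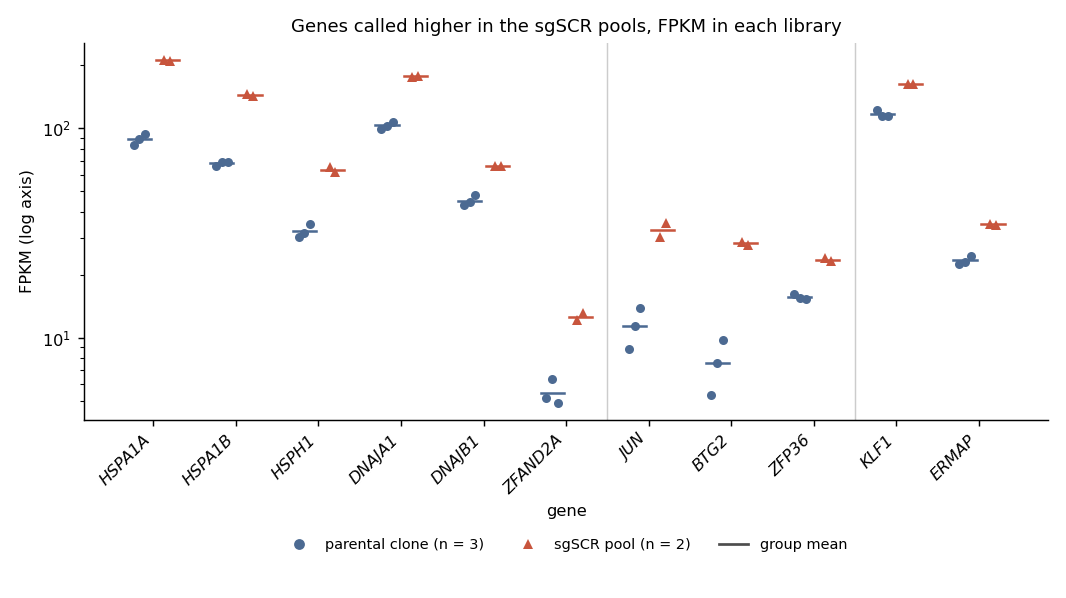
FPKM (log axis) of 11 genes called higher in the sgSCR pools, in each parental clone (circles, n = 3) and each sgSCR pool (triangles, n = 2), with a line at each group mean; grey lines part chaperone, early response and erythroid genes. For every gene drawn, both pools lie above all 3 clones, with HSPA1A at 212 and 210.5 FPKM in the pools and 83.3 to 93.7 in the clones.

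A few early response genes were higher in the pools as well. Of 24 immediate early genes tested, 2 rose (against 0.906% of all genes), 0 fell, 14 had both pools above all clones (58.3%, against 23.0% of all genes) and 4 had both below (against 21.3%); the median log2 difference was 0.31. JUN (ENSG00000177606, chromosome 1, 58780788 to 58784327), a subunit of the transcription factor AP-1, was at 8.86, 11.4 and 13.9 FPKM in the clones and 30.2 and 35.2 in the pools (log2 difference 1.46, SE 0.18, adjusted p = 0.0355). The lowest pool held more than 2 times the highest clone. ZFP36 encodes a protein that binds AU-rich elements and destabilises messages, and was at 16.1, 15.5 and 15.3 FPKM in the clones and 23.9 and 23.2 in the pools (log2 difference 0.56, SE 0.071, adjusted p = 0.0355). BTG2 (ENSG00000159388, chromosome 1, 203305491 to 203309602), an antiproliferative gene that p53 and growth signals induce, was listed with the DNA damage genes. It was at 5.34, 7.602 and 9.71 FPKM in the clones and 28.6 and 27.9 in the pools (log2 difference 1.81, SE 0.22, adjusted p = 0.0355). Of the 19 DNA damage and p53 target genes tested, 1 rose (against 0.906% of all genes) and 1 fell (against 0.820%). Both pools lay above all clones in 8 (42.1%, against 23.0% of all genes) and below in 4 (21.05%, near the 21.3% of all genes). K562 lacks functional p53, and the part of p53 in these values was not tested. The gene that fell was FDXR, a mitochondrial ferredoxin reductase, from 46.3 ± 2.54 to 31.6 ± 0.614 FPKM (adjusted p = 0.0366).

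The other AP-1 and early genes did not pass. FOS was at 44.8, 40.00 and 43.3 FPKM in the clones and 54.9 and 47.3 in the pools (log2 difference 0.25, adjusted p = 0.169). EGR1 was at 101, 106 and 119 FPKM in the clones and 152 and 152 in the pools (log2 difference 0.49, adjusted p = 0.0528). DUSP1, a phosphatase that ends MAP kinase signalling, was at 9.97, 11.7 and 13.3 in the clones and 21.9 and 20.01 in the pools (adjusted p = 0.0518). In all 3 of these genes the groups did not overlap. JUNB and FOSL1 were also above, at adjusted p-values of 0.0772 and 0.0528. Neither JUN nor ZFP36 was called without parental replicate 1 or 2 or without either pool. Without parental replicate 3, 5 of the 24 genes were called higher.

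The promoters of JUN and BTG2, the called early genes of largest change, are shown with matches to TGACNTCA or its reverse complement TGANGTCA in capitals. AP-1 and CREB family factors recognise sites of this kind, and 6.87% of the RefSeq promoters hold a match in the 250 bases before the start.
JUN, chr1:58784048-58784297, minus strand: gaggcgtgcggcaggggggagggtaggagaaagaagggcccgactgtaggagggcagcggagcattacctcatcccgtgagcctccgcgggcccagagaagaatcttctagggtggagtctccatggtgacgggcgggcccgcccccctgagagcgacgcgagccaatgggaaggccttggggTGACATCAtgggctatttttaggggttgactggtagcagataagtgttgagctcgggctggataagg
BTG2, chr1:203305269-203305518, plus strand: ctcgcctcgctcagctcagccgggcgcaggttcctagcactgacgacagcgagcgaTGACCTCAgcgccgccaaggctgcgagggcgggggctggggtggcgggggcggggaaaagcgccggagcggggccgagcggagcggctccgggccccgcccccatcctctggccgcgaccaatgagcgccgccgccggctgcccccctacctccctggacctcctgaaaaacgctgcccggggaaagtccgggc
The matches began 67 bases before the start in JUN and 194 bases before it in BTG2, and ZFP36 had none in this window.

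Some genes that build ribosomes were higher. Of 37 MYC and ribosome biogenesis genes tested, 4 rose (against 0.906% of all genes) and 0 fell. Of the 37, 26 had both pools above all clones (70.3%, against 23.0% of all genes) and 1 below (2.70%, against 21.3%). The median log2 difference was 0.21. RRS1, needed to assemble the large ribosomal subunit, was at 38.5, 36.8 and 39.7 FPKM in the clones and 59.3 and 59.5 in the pools (log2 difference 0.62, SE 0.062, adjusted p = 0.0338). NIP7, NOP2 and MRTO4, other factors of ribosome assembly, rose by log2 0.53, 0.48 and 0.40. MYC itself was at 224, 248 and 249 FPKM in the clones and 273 and 278 in the pools and did not pass (adjusted p = 0.137), and neither did ODC1, the first enzyme of polyamine synthesis (log2 difference 0.59, adjusted p = 0.0518). The nucleolar genes SURF6, NOL6, GRWD1 and UTP15 and the translation initiation genes EIF5, EIF4G1 and EIF4G2 were called higher too and were named after their values were seen. Of these, EIF5 changed most, from 66.4 ± 6.65 to 129 ± 5.08 FPKM (log2 difference 0.95, adjusted p = 0.0338).

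The ribosomal proteins, which these factors assemble into ribosomes, were close to equal in level. None of 75 cytosolic ribosomal protein genes was called, and their median log2 difference was 0.00034. Their share of the summed FPKM was 23.8% ± 0.819 in the clones and 23.8% ± 0.163 in the pools (exact permutation p = 1). Of the 4 called ribosome biogenesis genes, 0 were called without parental replicate 1, parental replicate 2 or either pool, and 3 of the 37 genes were called without parental replicate 3.

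Some erythroid regulators were higher in the pools, and no globin was called. Of 31 genes for erythroid regulators and the red cell membrane, 2 rose (against 0.906% of all genes), 0 fell, 13 had both pools above all clones (41.9%, against 23.0% of all genes) and 1 below (against 21.3%). KLF1 (ENSG00000105610, chromosome 19, 12884422 to 12887199), the transcription factor that activates adult globin and membrane genes, was at 122, 114 and 115 FPKM in the clones and 164 and 163 in the pools (log2 difference 0.48, SE 0.053, adjusted p = 0.0352). ERMAP, a red cell membrane adhesion protein gene, was at 22.6, 23.1 and 24.5 FPKM in the clones and 35.1 and 34.5 in the pools (log2 difference 0.55, SE 0.069, adjusted p = 0.0355). TAL1, a regulator of blood cell fate, and EPOR, the erythropoietin receptor, had both pools above all clones without passing: TAL1 at 24.1, 30.4 and 25.1 against 39.1 and 44.3 FPKM (adjusted p = 0.0609) and EPOR at 9.84, 10.8 and 11.8 against 16.7 and 16.1 (adjusted p = 0.0560). GATA1, the master erythroid factor, was at 287, 268 and 246 FPKM in the clones and 279.9 and 269.5 in the pools with the groups overlapping. KLF1 and ERMAP were not called without parental replicate 1 or 2 or without either pool, and 3 of the 31 genes were called without parental replicate 3.

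Among the 10 globin genes and the globin chaperone tested, 0 were called. In 1 the pools lay above all clones (10%, against 23.0% of all genes), and in 0 below (against 21.3%). The fetal globin HBG2 was at 10200.0, 14313 and 19180.0 FPKM in the clones and 13499.9 and 12742 in the pools, so both pools lay inside the range of the clones (log2 difference -0.10, SE 0.25, adjusted p = 0.833). HBG1 and HBG2 are nearly identical, and their sum was 14585 ± 4502 and 13149 ± 533 FPKM. The embryonic globin HBZ was at 541, 692 and 1179.8 FPKM in the clones and 800.1 and 780.4 in the pools, and HBA1 at 2046, 2889.5 and 4029 in the clones and 3186 and 2958 in the pools. For HBG2, HBZ and HBA1 the lowest and the highest library were parental clones. Globins held 2.12% ± 0.610 of the summed FPKM in the clones and 1.98% ± 0.0354 in the pools (exact permutation p = 0.8).

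Several enzymes induced by the integrated stress response were lower in the pools. Of 28 genes tested, 5 fell (against 0.820% of all genes) and 1 rose (against 0.906%). Of the 28, 17 had both pools below all clones (60.7%, against 21.3% of all genes). In 2, ATF5 and ASS1, both pools lay above (7.14%, against 23.0%). The median log2 difference was -0.27. PCK2 (ENSG00000100889, chromosome 14, 24094053 to 24110598), the mitochondrial phosphoenolpyruvate carboxykinase, was at 78.97, 81.3 and 79.5 FPKM in the clones and 49.4 and 41.6 in the pools (log2 difference -0.81, SE 0.084, adjusted p = 0.0338). CTH, which makes cysteine from cystathionine, was at 31.04, 30.8 and 31.3 FPKM in the clones and 17.1 and 18.6 in the pools (log2 difference -0.77, SE 0.070, adjusted p = 0.0338). PSAT1 of the serine pathway was at 171, 178 and 187 FPKM in the clones and 117 and 121 in the pools (log2 difference -0.58, SE 0.057, adjusted p = 0.0338). In all 3 genes the clones lay close together and above both pools. MTHFD2, a mitochondrial folate enzyme, fell from 252 ± 23.04 to 173 ± 3.83 FPKM (adjusted p = 0.0475), and ASNS, asparagine synthetase, from 274 ± 7.59 to 203 ± 1.67 (adjusted p = 0.0352).

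The best-known transcription factors of the response were not called. ATF4 was at 438, 476 and 474 FPKM in the clones and 479.6 and 447 in the pools (log2 difference 0.0014, SE 0.060). DDIT3, the stress factor CHOP, was at 41.8, 48.7 and 54.7 FPKM in the clones and 50.7 and 46.7 in the pools, and the pseudokinase gene TRIB3 at 71.4, 71.7 and 71.2 in the clones and 67.9 and 73.2 in the pools. For these 3 genes the groups overlapped. ATF5 (ENSG00000169136, chromosome 19, 49928702 to 49933935), a factor close to ATF4 that is itself controlled at translation, was the member that rose, from 69.95, 67.1 and 59.3 FPKM in the clones to 115 and 115 in the pools (log2 difference 0.81, SE 0.082, adjusted p = 0.0338). Part of its exons, 21.2% of the bases, overlaps NUP62 on the opposite strand, and whether reads were counted by strand is not given in the sources used here. PHGDH, the first enzyme of serine synthesis, was at 177, 147 and 108 FPKM in the clones and 155 and 147 in the pools, which lay inside the range of the clones.

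Some members with larger differences did not pass, and in these the clones lay far apart. DDIT4, an inhibitor of mTORC1, was at 348, 579.6 and 847 FPKM in the clones and 231 and 230.4 in the pools (log2 difference -1.26, SE 0.35, adjusted p = 0.107). CHAC1, which degrades glutathione, was at 29.8, 53.2 and 84.3 FPKM in the clones and 20.8 and 22.7 in the pools (adjusted p = 0.149). Both pools were below all clones in these genes, but the clones ranged over more than 2-fold. Other genes of amino acid supply were called lower and named after their values were seen: GLUL, glutamine synthetase (log2 difference -0.64), GPT2, an alanine transaminase (-0.70), and the tRNA synthetase genes CARS (-0.52) and WARS (-0.45). No member of the list was called without parental replicate 1, parental replicate 2 or either pool, and 6 were called lower and 1 higher without parental replicate 3.

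Of the 5 enzyme genes that fell, ASNS was the only one with a match to TGATGNAA, the core of the element that ATF4 pairs bind, or to its reverse complement TTNCATCA in the 250 bases before the start. The match, in capitals below, began 68 bases before 1 of the 2 RefSeq starts. The motif is in 3.14% of the RefSeq promoters, and PCK2, CTH, PSAT1 and MTHFD2 had no match in this window.
ASNS, chr7:97872409-97872658, minus strand: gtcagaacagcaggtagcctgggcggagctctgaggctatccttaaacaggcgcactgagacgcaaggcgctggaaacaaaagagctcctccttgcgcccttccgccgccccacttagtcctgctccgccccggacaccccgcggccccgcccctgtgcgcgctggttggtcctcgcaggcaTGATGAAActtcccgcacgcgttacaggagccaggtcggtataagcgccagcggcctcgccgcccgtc

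**Figure D3:**
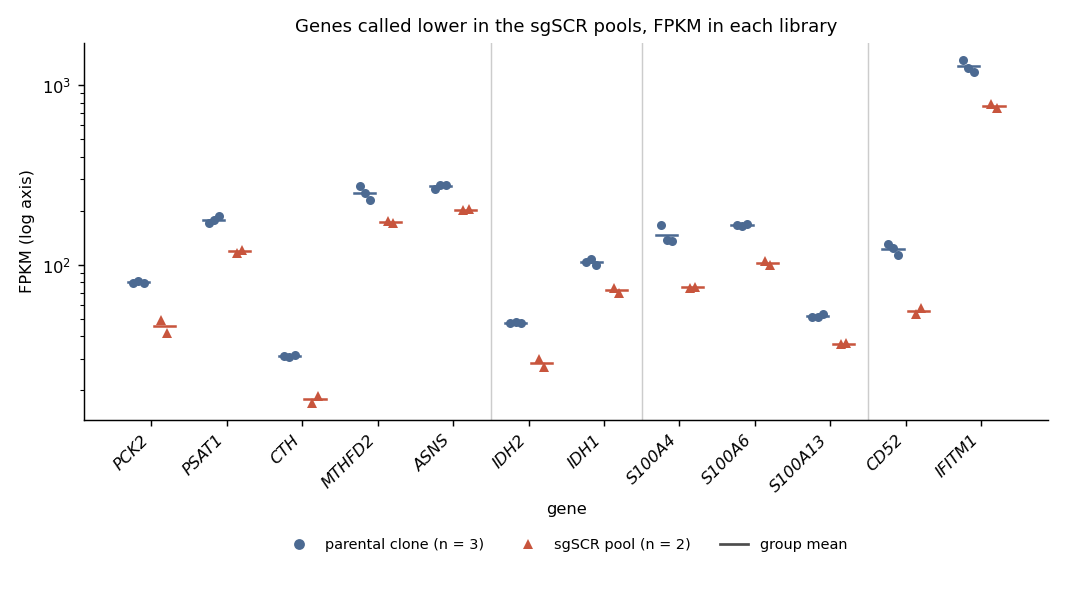
FPKM (log axis) of 12 genes called lower in the sgSCR pools, in each parental clone (circles, n = 3) and each sgSCR pool (triangles, n = 2), with a line at each group mean; grey lines part stress response enzymes, isocitrate dehydrogenases, S100 genes and surface genes. For every gene drawn, both pools lie below all 3 clones, with PCK2 at 49.4 and 41.6 FPKM in the pools and 79.0 to 81.3 in the clones.

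Some calcium-binding S100 genes were lower. Of 15 S100 and annexin genes tested, 3 fell (against 0.820% of all genes), 0 rose, and 8 had both pools below all clones (53.3%, against 21.3% of all genes). S100A4 was at 167, 138 and 135 FPKM in the clones and 74.7 and 75.2 in the pools (log2 difference -0.95, SE 0.10, adjusted p = 0.0338). S100A6 was at 167, 165 and 169 FPKM in the clones and 105 and 100.3 in the pools (log2 difference -0.70, SE 0.050, adjusted p = 0.0279), and S100A13 at 51.03, 51.3 and 52.9 in the clones and 36.1 and 36.8 in the pools (log2 difference -0.50, SE 0.058, adjusted p = 0.0355). The 3 genes lie in the S100 cluster of chromosome 1, and 24.2% of the exon bases of S100A13 are shared with AL162258.1, which was called higher. S100A1 lies outside the list and was called lower as well, at 75.7, 91.9 and 96.1 FPKM in the clones and 50.8 and 52.3 in the pools (adjusted p = 0.0434), and was named after its values were seen. S100A11, of the same family, was at 238 ± 12.2 FPKM in the clones and 236 ± 3.23 in the pools with the groups overlapping. None of the 3 was called without parental replicate 1 or 2 or either pool, and all 3 were without parental replicate 3.

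CD52, a short glycoprotein anchored to the surface of lymphocytes, was at 129.8, 124 and 114 FPKM in the clones and 53.4 and 57.2 in the pools (log2 difference -1.13, SE 0.075, adjusted p = 0.0279). IFITM1, an interferon-induced membrane protein that restricts virus entry, was at 1385, 1249.9 and 1185 FPKM in the clones and 787 and 745 in the pools (log2 difference -0.73, SE 0.075, adjusted p = 0.0338). It was the only called member of 14 interferon-stimulated genes tested (against 0.820% of all genes called lower). Of the 14, 6 had both pools below all clones (42.9%, against 21.3% of all genes) and 2 above (14.3%, against 23.0%). IFITM1 shares 32.5% of its exon bases with IFITM2, which was at 322, 265 and 198 in the clones and 153 and 147 in the pools (adjusted p = 0.0912). The fibronectin receptor gene ITGA5 fell from 48.3 ± 4.65 to 29.2 ± 1.503 FPKM (adjusted p = 0.0393), the 1 call among 16 matrix and integrin genes. Of the 16, 9 had both pools below all clones (56.25%, against 21.3% of all genes) and 0 above, at a median log2 difference of -0.27. IL2RG, the shared chain of several cytokine receptors, fell from 42.3 ± 3.38 to 25.02 ± 0.751 (adjusted p = 0.0355), and STAT5B, a factor downstream of such receptors, from 76.4 ± 4.01 to 53.5 ± 0.401 (adjusted p = 0.0355). They were the 2 called members of 28 JAK-STAT genes tested (against 0.820% of all genes called lower). Of the 28, 7 had both pools below all clones (25%, against 21.3% of all genes) and 7 above (25%, against 23.0%). The list's median log2 difference was -0.041. TMSB4X, TMSB10, LCP1 and COTL1, which bind actin, were called lower by log2 -0.54, -0.41, -0.64 and -0.45 and were named after their values were seen.

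Further large rises and falls were in single genes of diverse roles. CLU, an extracellular chaperone, was at 4.799, 2.98 and 2.83 FPKM in the clones and 16.7 and 12.8 in the pools (log2 difference 1.81, SE 0.22, adjusted p = 0.0355). NEFH, a neurofilament subunit, was at 32.2, 25.2 and 39.3 FPKM in the clones and 96.97 and 84.98 in the pools (log2 difference 1.49, SE 0.18, adjusted p = 0.0355), and the oxidoreductase gene FAXDC2 at 5.46, 7.12 and 8.44 in the clones and 21.9 and 19.01 in the pools (log2 difference 1.44, SE 0.18, adjusted p = 0.0355). The 3 genes were named from called genes whose groups did not overlap, so both pools lay above all clones by that choice. KCND1, a potassium channel, rose from 1.62 ± 0.0513 to 5.38 ± 0.817 FPKM, PLD6, a mitochondrial nuclease, from 2.84 ± 0.0399 to 7.61 ± 1.64, and DRC3, a ciliary gene, from 2.43 ± 0.444 to 7.77 ± 1.48. ID3, an inhibitor of helix-loop-helix factors, was at 9.34, 10.1 and 14.4 FPKM in the clones and 3.04 and 2.84 in the pools (log2 difference -1.62, SE 0.19, adjusted p = 0.0355). PLA2G6, a calcium-independent phospholipase, was at 35.7, 36.8 and 28.5 FPKM in the clones and 13.5 and 15.2 in the pools (log2 difference -1.17, SE 0.13, adjusted p = 0.0352).

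Other called genes can be grouped by role, with the groups and names chosen after their values were seen. Genes of transcription and RNA handling were among those that rose. POLR2A, the catalytic subunit of RNA polymerase II, was at 31.7, 34.7 and 32.02 FPKM in the clones and 52.3 and 51.6 in the pools (log2 difference 0.65, adjusted p = 0.0338). HNRNPH3, a splicing regulator, rose from 144 ± 7.02 to 222 ± 2.88 FPKM (adjusted p = 0.0338), and BRD2, a bromodomain reader of acetylated histones, from 82.5 ± 0.881 to 120.2 ± 2.42 (adjusted p = 0.0338). The helicase gene DDX3X and G3BP1, which nucleates stress granules, rose by log2 0.49 and 0.48. Kinases and receptors of signalling were among those that fell. SRC was at 16.5, 17.9 and 14.8 FPKM in the clones and 8.38 and 8.85 in the pools (log2 difference -0.85, adjusted p = 0.0355), and PTK2B, a kinase of the focal adhesion family, at 39.7, 41.03 and 46.8 in the clones and 25.5 and 26.01 in the pools (log2 difference -0.70). PRKCB, a protein kinase C, fell by log2 -0.51, the TNF receptor gene TNFRSF1A by -0.55 and the Fc receptor gene FCGR2A by -0.70.

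Further falls were in VIL1, PTGDS, SDHAF4, GOLGA6L4, MXD3 and CD70. VIL1, an actin-bundling protein gene of epithelia, was at 6.37 ± 1.13 FPKM in the clones and 1.97 ± 0.426 in the pools, with 44.0% of its exon bases shared with USP37 on the other strand. PTGDS, a prostaglandin synthase, was at 5.23 ± 0.856 in the clones and 1.85 ± 0.144 in the pools, SDHAF4, an assembly factor of succinate dehydrogenase, at 11.1 ± 0.985 in the clones and 5.01 ± 1.18 in the pools, and GOLGA6L4, of a golgin family with near-identical copies, at 12.4 ± 1.58 in the clones and 5.798 ± 1.15 in the pools. MXD3, which pairs with MAX against MYC, fell from 28.8 ± 1.08 to 14.5 ± 2.57 FPKM, and CD70, a costimulatory ligand, from 9.14 ± 1.45 to 4.28 ± 0.187. The adjusted p-values of these 6 genes were between 0.0355 to 0.0475.

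In metabolism, the cytosolic and mitochondrial NADP-dependent isocitrate dehydrogenases fell while the rest of the TCA cycle did not pass. IDH2 was at 47.3, 47.97 and 47.3 FPKM in the clones and 29.9 and 27.1 in the pools (log2 difference -0.72, SE 0.068, adjusted p = 0.0338), and IDH1 at 103, 107 and 99.6 in the clones and 74.1 and 69.8 in the pools (log2 difference -0.51, SE 0.061, adjusted p = 0.0355). The other 20 of 22 TCA cycle genes tested were not called, while 0.820% of all genes were called lower. Of the 22, 10 had both pools below all clones (45.5%, against 21.3% of all genes) and 5 above (22.7%, near the 23.0% of all genes). The list's median log2 difference was -0.061. Of 25 glycolysis genes, 1 fell (against 0.820% of all genes), 12 had both pools below all clones (against 21.3% of all genes) and 2 above (against 23.0%). The gene that fell was ENO2, the neuronal enolase, from 10.4 ± 1.36 to 5.02 ± 0.0523 FPKM (adjusted p = 0.0404). SLC2A1, the glucose transporter GLUT1, was at 29.1, 31.2 and 55.02 FPKM in the clones and 80.4 and 93.5 in the pools without passing (log2 difference 1.21, SE 0.28, adjusted p = 0.0815). None of 61 nuclear-encoded respiratory chain genes and none of 13 mitochondrially encoded ones was called. Mitochondrially encoded genes held 14.04% ± 0.910 of the summed FPKM in the clones and 13.7% ± 0.806 in the pools (exact permutation p = 0.8). Of the sterol and fatty acid genes, ACSS2, which makes acetyl-CoA from acetate, was the 1 of 33 that fell (against 0.820% of all genes, adjusted p = 0.0472).

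The other genes of this list were not called. Of the 33 genes of sterol and fatty acid synthesis, 15 had both pools above all clones (45.5%, against 23.0% of all genes). In 7 both pools lay below (21.2%, near the 21.3% of all genes), and the median log2 difference was 0.11. INSIG1, which holds the sterol sensor in the endoplasmic reticulum, was at 32.4, 38.6 and 40.5 FPKM in the clones and 56.2 and 60.6 in the pools (log2 difference 0.64, adjusted p = 0.0539). Both pools lay above all clones, and the gene did not pass. Among 21 haem synthesis and iron genes 6 had both pools above (28.6%, near the 23.0% of all genes) and 1 below (4.76%, against 21.3%), with 0 called. SLC25A37, the mitochondrial iron importer, was at 66.2, 72.8 and 103 FPKM in the clones and 134 and 131 in the pools (adjusted p = 0.0908). Among 29 autophagy and lysosome genes 11 had both pools below (37.9%, against 21.3% of all genes) and 6 above (20.7%, against 23.0%), with 0 called. The autophagy gene WIPI1 was at 13.9, 11.2 and 12.4 FPKM in the clones and 7.59 and 6.99 in the pools (adjusted p = 0.0518), while SQSTM1, the cargo receptor p62, was at 61.5, 50.9 and 47.6 in the clones and 67.6 and 101 in the pools (adjusted p = 0.125).

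Of the cell cycle lists, G2/M and mitosis leaned lower without a call. None of 37 G2/M and mitosis genes was called, but 19 had both pools below all clones (51.4%, against 21.3% of all genes) and 3 above (against 23.0%), at a median log2 difference of -0.11. MKI67, a marker of cycling cells, was at 37.5, 31.9 and 34.8 FPKM in the clones and 28.4 and 27.9 in the pools (adjusted p = 0.118). TOP2A, the mitotic topoisomerase, was at 127, 124 and 123 in the clones and 105 and 109 in the pools (adjusted p = 0.0824). CDC20, which activates the anaphase-promoting complex, went the other way, at 108, 114 and 119 FPKM in the clones and 134 and 131 in the pools. None of 38 G1/S and replication genes was called, and their median was -0.0080. CDKN2D, a CDK4 and CDK6 inhibitor gene, was at 3.81, 3.12 and 3.49 FPKM in the clones and 6.52 and 6.59 in the pools (adjusted p = 0.0475). It was the called member of 6 CDK inhibitors (against 0.906% of all genes called higher). Of the 6, 2 had both pools above all clones (33.3%, against 23.0%) and 1 below (16.7%, against 21.3%). When all 12 libraries of the study shared 1 estimate of the spread, 6 of the 37 G2/M genes were called lower. In that fit 876 of all 14017 genes tested were called lower.

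Of 44 lists written for K562 and for edited cells, 41 had at least 5 tested members; 18 of these had a call and 23 had none. The metallothioneins and zinc genes had the lowest median, -0.62 over 8 genes, with 0 called. Of the 8, 5 had both pools below all clones (62.5%, against 21.3% of all genes) and 1 above (12.5%, against 23.0%). In MT2A, which binds zinc and copper, the clones were at 12.1, 25.2 and 36.3 FPKM and the pools at 6.28 and 7.13 (adjusted p = 0.0989), so the clones themselves were far apart. None of the 34 PRC1 and PRC2 genes, 23 DNA repair genes, 13 BCL2 family genes, 13 NRF2 targets or 43 histone genes tested was called. No clustered protocadherin gene reached the level for testing. HCFC1, a chromatin cofactor that binds the BAP1 complex in which ASXL1 acts, was the called member of 12 genes of that complex and the FOXK factors, at 31.5, 32.2 and 31.6 FPKM in the clones and 44.2 and 45.1 in the pools (log2 difference 0.48, SE 0.059, adjusted p = 0.0355). Over all genes, 0.906% were called higher. Of the 12, 4 had both pools above all clones (33.3%, against 23.0% of all genes) and 1 below (8.33%, against 21.3%). EDEM1, which targets misfolded glycoproteins for degradation, was the 1 of 19 unfolded protein response genes that was called (against 0.820% of all genes called lower). It fell from 15.2 ± 0.633 to 9.41 ± 0.629 FPKM (adjusted p = 0.0391). Of the 19, 4 had both pools below all clones (21.05%, near the 21.3% of all genes) and 3 above (15.8%, against 23.0%). In the WNT list the receptor gene FZD4 fell (log2 difference -0.57, adjusted p = 0.0438), 1 call among 25 (against 0.820% of all genes called lower). Of the 25, 6 had both pools below all clones (24%, near the 21.3% of all genes) and 5 above (20%, near the 23.0%).

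**Figure D4:**
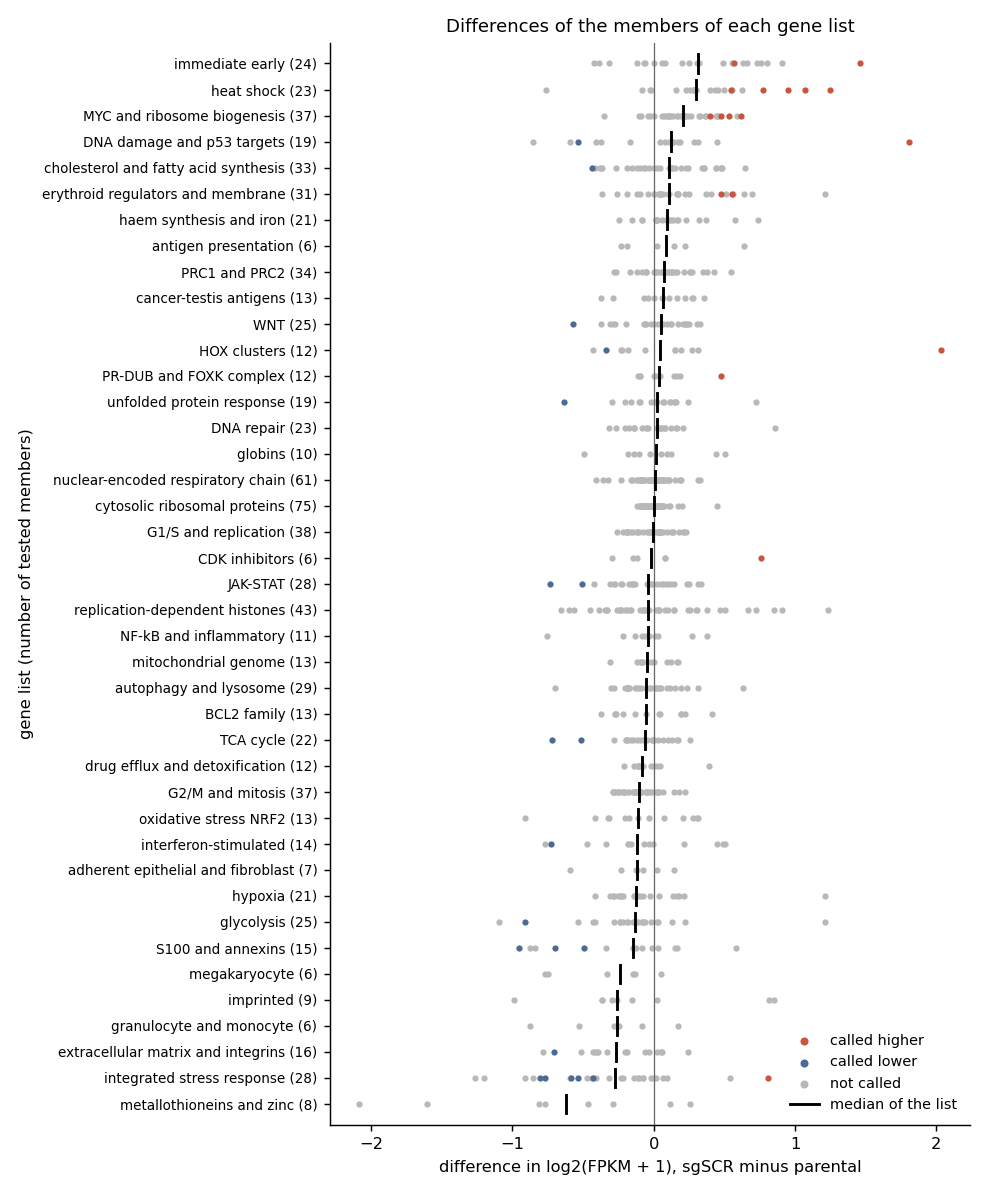
Difference in log2(FPKM + 1) between sgSCR pools and parental clones for each tested member of the 41 lists with at least 5 tested members, ordered by the median of the list (black bar); red and blue points are genes called higher and lower. The immediate early, heat shock and ribosome biogenesis lists have the highest medians (0.31, 0.30 and 0.21), and the stress response and metallothionein lists the lowest (-0.27 and -0.62).

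The genes that the study edited in its other samples were not called between these controls. ASXL1 was at 49.7, 58.6 and 39.8 FPKM in the clones and 43.2 and 58.1 in the pools (log2 difference 0.037, SE 0.19, adjusted p = 0.925). FOXK1 was at 5.18, 5.76 and 5.54 FPKM in the clones and 6.24 and 6.27 in the pools (adjusted p = 0.374), FOXK2 at 42.2, 43.9 and 38.8 in the clones and 42.6 and 40.8 in the pools (0.982), and ASXL2, the paralogue of ASXL1, at 8.86, 7.96 and 7.696 in the clones and 8.19 and 8.23 in the pools (0.971). The pools lay above all clones in FOXK1 alone of the 4.

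A few called genes were listed at 0 in every library of 1 group. HOXB4, a homeobox gene, was listed at 0 in the 3 clones and at 2.84 and 3.37 FPKM in the pools (adjusted p = 0.0338). Its neighbour HOXB3 was at 32.6, 31.6 and 35.03 FPKM in the clones and 29.4 and 26.6 in the pools, and the sum of both genes was 33.1 ± 1.78 and 31.1 ± 1.597. PDF, a mitochondrial deformylase gene, was listed at 0 in the clones and at 5.04 and 12.2 FPKM in the pools, and shares 48.3% and 46.3% of its exon bases with 2 COG8 entries. PIGY was at 26.4, 6.68 and 25.9 FPKM in the clones and listed at 0 in both pools, and all of its exon bases (100%) lie in PYURF, which was at 5.07, 5.86 and 7.604 in the clones and 9.04 and 11.9 in the pools. RN7SKP70, a small RNA copy that shares 59.4% of its exon bases with CLK4, was at 6.53, 3.37 and 4.18 in the clones and 0 in the pools. Reads can be assigned to either of 2 overlapping genes, so the calls of PDF, PIGY and RN7SKP70 are uncertain, and no fold is given for the 4 genes. In the other 7 libraries HOXB4 ranged over 0.726 to 2.12 FPKM in the FOXK pools and averaged 3.26 in the mutant ASXL1 knockout clones. HOXB9 was the other called gene of the 12 HOX cluster genes tested, and fell from 95.8 ± 0.433 to 75.7 ± 2.903 FPKM (adjusted p = 0.0494). Over all genes, 0.906% were called higher and 0.820% lower. Of the 12, 2 had both pools above all clones (16.7%, against 23.0% of all genes) and 5 below (41.7%, against 21.3%).

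By the median difference per gene, the clones differed less among themselves than from the pools. The median absolute log2 difference per gene was 0.126 to 0.185 between pairs of clones, 0.105 between the pools, and 0.193 to 0.211 between a pool and a clone. Genes apart by 2-fold or more numbered 301 to 478 between clones, 296 between the pools and 358 to 506 between a pool and a clone, so the ranges of clone pairs and of mixed pairs overlapped by this count. Among the 14017 genes, 680 (4.85%) ranged over 2-fold or more in the clones on the log2(FPKM + 1) scale, and in 385 of those both pools lay inside the range of the clones. In a principal component analysis, the first component, with 37.5% of the variance, parted pools (22.1 and 26.4) from clones (-14.4 to -17.4), and the second, with 27.2%, spread the clones from 29.1 to -22.2 and the pools from 4.74 to -7.35.

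The 6 genes of widest range among the clones, with clone-based names and small RNAs set aside, show the scale. NFIA, a transcription factor gene, was at 2.92, 11.3 and 59.2 FPKM in the clones and 11.4 and 12.7 in the pools. COX6B2, a testis form of a respiratory chain subunit, was at 1.52, 35.6 and 2.51 FPKM in the clones and 1.14 and 0.754 in the pools, high in 1 clone. TRPM6, a magnesium channel gene, was at 31.7, 5.41 and 0.175 in the clones and 0.276 and 33.03 in the pools, so that 1 clone and 1 pool were high and 2 of the others under 1 FPKM. EYS was at 10.2, 30.6 and 0.124 in the clones and 25.7 and 12.6 in the pools, and C19orf57 at 1.05, 15.98 and 30.6 in the clones and 21.1 and 2.08 in the pools. CTNNA3, a catenin gene, was at 1.23, 0 and 13.03 in the clones and 6.21 and 0.181 in the pools. None of these 6 genes was called.

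The other 7 libraries of the study have the same layout of pools in one table and clones in another, and share no sample with the comparison: 4 FOXK1 or FOXK2 knockout pools, called FOXK pools, and 3 mutant ASXL1 knockout clones, called mutant knockouts. They carry edits, so they show where the difference recurs and are no replicate of it. Of the 127 genes called higher in the sgSCR pools, 101 (79.5%) had all 4 pools above all 3 clones, against 32.3% of all tested genes, and 5 the opposite. Of the 115 called lower, 64 (55.7%) had all pools below, against 19.9% of all genes, and 13 the opposite. The median log2 difference in these libraries was 0.57 over the risen and -0.37 over the fallen genes. Over the 9 alternatives that left enough calls to compare, the shares ran from 76.7% to 82.4% and from 51.7% to 57.6%.

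The chaperone genes and some early genes had the same order there. Of 23 heat shock genes, 19 had every FOXK pool above all mutant knockouts and 1 below. Of 24 immediate early genes, 13 were above and 4 below. Over all genes, 32.3% were above and 19.9% below. HSPA1A was at 141, 165 and 136 FPKM in the mutant knockouts and at 256 to 271 in the 4 FOXK pools, and HSPH1 at 49.7, 56.6 and 54.4 in the mutant knockouts and 71.1 to 73.5 in the FOXK pools. JUN was at 5.24, 5.16 and 4.78 FPKM in the mutant knockouts and 29.5 to 38.3 in the FOXK pools, and BTG2 at 6.78, 7.28 and 6.03 in the mutant knockouts and 32.7 to 37.6 in the FOXK pools. KLF1 was at 85.2, 96.6 and 81.8 FPKM in the mutant knockouts and 156 to 183 in the FOXK pools. In each of these genes every pool exceeded every clone. The 2 kinds of clone differed in some early genes: JUN averaged 11.4 FPKM in the parental clones and 5.06 in the mutant knockouts, and BTG2 7.55 and 6.69. FOS averaged 42.7 FPKM in the parental clones, 51.1 in the sgSCR pools, 4.42 in the mutant knockouts and 32.8 in the FOXK pools. PCK2 recurred in its own direction, at 82.8, 72.6 and 77.8 FPKM in the mutant knockouts and 18.5 to 24.3 in the FOXK pools. Of the 28 stress response genes, 27 had every FOXK pool below all mutant knockouts, against 19.9% of all genes. Between the controls, 17 of the 28 had both pools below all clones, so the 27 are not a count of recurrences. They include ATF5 and ASS1, in which the sgSCR pools lay above the parental clones. ASS1 averaged 22.6 FPKM in the parental clones, 32.4 in the sgSCR pools, 42.0 in the mutant knockouts and 4.24 in the FOXK pools. The HSPA1A level of the knockout clones lay between those of the parental clones and the sgSCR pools.

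Some of the called genes did not recur. ATF5, higher in the sgSCR pools, was at 75.8, 64.8 and 81.6 FPKM in the mutant knockouts and at 24.1 to 32.5 in the FOXK pools, the opposite order. S100A4 was at 50.1, 60.6 and 54.01 FPKM in the mutant knockouts and 80.7 to 108 in the FOXK pools and S100A6 at 85.4, 82.7 and 82.3 in the mutant knockouts and 103 to 124 in the FOXK pools, so all pools lay above the knockout clones and the sgSCR pools lay between the 2 kinds of clone. CD52 was at 51.8, 62.8 and 48.3 in the mutant knockouts and 55.6 to 78.6 in the FOXK pools, and IDH2 at 27.3, 26.5 and 24.95 in the mutant knockouts and 27.2 to 28.99 in the FOXK pools, with overlap. CLU was at 12.9, 17.6 and 18.3 FPKM in the mutant knockouts and 8.58 to 17.7 in the FOXK pools, all of them above the 3 parental clones.

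**Figure D5:**
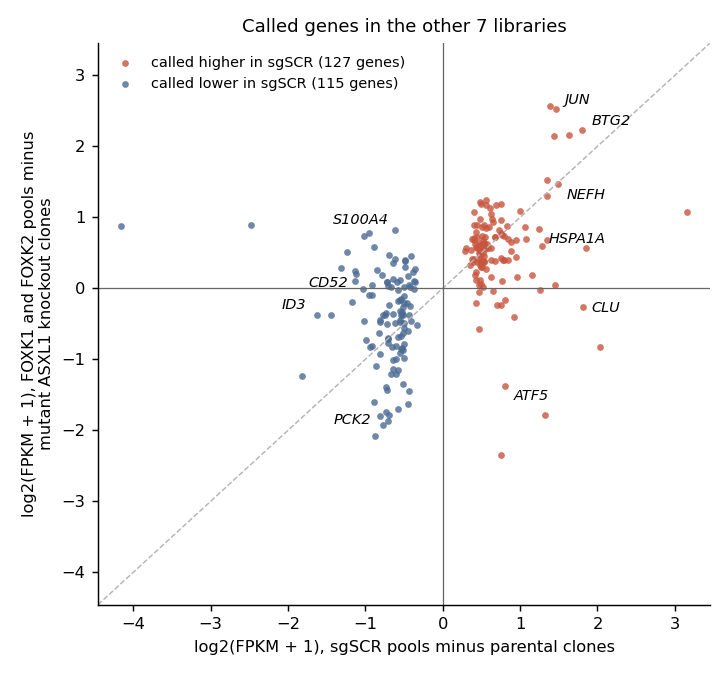
Each point is 1 of the 242 called genes; the horizontal axis is its difference in log2(FPKM + 1) between sgSCR pools and parental clones, the vertical axis that between the 4 FOXK1 and FOXK2 pools and the 3 mutant ASXL1 knockout clones, and the dashed line marks equal differences. JUN, BTG2 and HSPA1A lie in the upper right, PCK2 in the lower left, and ATF5, S100A4 and CLU have opposite signs on the axes.

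The chromosomes had medians near 0. The median log2 difference per chromosome ran from -0.039 on chromosome 13 to 0.067 on chromosome 16. Over 1631 overlapping windows of 31 neighbouring protein-coding genes, the median ran from -0.197 to 0.244, the highest on chromosome 19 and the lowest on chromosome 5, and 0 windows passed 0.25 in size. With protein-coding genes split into 5 bins by GC content the median ran from -0.0059 to 0.024, and with 5 bins by transcript length from -0.00019 to 0.020. The calls were not even over the GC bins: from the lowest to the highest GC content, 8, 13, 19, 33 and 31 genes were called higher and 12, 18, 17, 23 and 24 lower. The part of GC content in the calls was not tested. HSPA1A and HSPA1B stand next to each other on chromosome 6, and their neighbour C6orf48, a host of small nucleolar RNAs named after its values were seen, was called higher as well, from 240.0 ± 3.54 to 323 ± 0.757 FPKM (adjusted p = 0.0338).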

How the data were processed

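RNA of cultured K562 cells was extracted with Trizol and sequenced as paired reads on an Illumina HiSeq instrument after TruSeq preparation, per the labels' protocols. The values are FPKM, deposited by the authors in 3 tables, per the file headers. The build GRCh38.p10 and the tools TopHat, Bowtie, RSEM, edgeR and Cufflinks are named, without roles, per the submitters' processing notes. Whether counting used the strand is not given in the sources used here. The scrambled control columns are headed sgCTRL and were matched to the samples labelled SCR. Their values are the same in both FOXK tables and were used once.

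Every value under 3 FPKM was a whole multiple, within 0.001 FPKM, of a step of 0.0095 to 0.0104 per library. Each step divided by 0.01 gives a factor per library, and the product of the 12 factors was 1.0000 over all tables, 0.8925 over the clones and 1.1204 over the pools. From these values the libraries of all tables appear to have been scaled together, which no label states, and levels were compared across tables on that basis. The steps are not whole reads, so depth is unknown and no counting interval is given.

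Genes with 1 FPKM or more in at least 2 of the 5 libraries were tested with limma 3.58.1 (R 4.3.3) with a variance trend on log2(FPKM + 1), two-sided, with Benjamini-Hochberg adjustment over 14017 genes and a threshold of 0.05. Fold changes on this scale understate the change of low genes. The fit was tested on simulated data with planted changes. Single values were tested with an exact permutation test. Nothing in the labels says that replicates were cultured apart, so p-values measure the spread between these libraries, which may be technical. Groups overlap unless every pool lies above, or every pool below, all clones. Other tools were Python 3.11.15, numpy 2.4.6, pandas 2.3.3, scipy 1.17.1 and matplotlib 3.10.9.

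Named genes are the edited genes and ASXL2, the 12 largest rises and falls among called genes with a mean of 2 FPKM or more and no overlap, up to 3 called members per list with the smallest adjusted p, genes at 0.1 FPKM or less throughout 1 group, and 6 genes of widest range among the clones. The other members of lists were taken as examples after their values were seen. The genes and lists were chosen with earlier results of these data known, and the members of a list share pathways and are not independent. Positions and overlaps of 20% or more of exon bases come from GENCODE 29, and promoter sequences from RefSeq (GRCh38.p14). The alternatives tried were other pseudocounts, filters, scalings and variance models, all 12 libraries in the fit, a replicate block, and leaving out each library. One result is not reported here.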

Additional observations from a re-analysis of the deposited data

How the results depend on the processing

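The counts of calls, 127 higher and 115 lower, were within 1.5 times under pseudocounts of 0.1 and 0.5, both other scalings, robust moderation and without mitochondrially encoded genes (99 to 151 higher, 99 to 150 lower). They moved to 1 and 0 with no filter on low values, 273 and 258 with a filter at 5 FPKM, 1 and 0 with no variance trend, and 948 and 876 with all 12 libraries in the fit. Leaving out 1 library gave 0 to 125 higher and 0 to 123 lower, the zeros at 973 or more higher and 851 or more lower genes at an unadjusted p under 0.05. The log2 difference of each of the 242 called genes kept its sign under every alternative that gave it a value. For genes whose groups do not overlap, leaving out a library could not have changed the sign. With the replicate block, 1 gene was called higher and 1 lower, and none of the 242 was among them; the numbers share no stated source, and the deviations of same-numbered libraries correlated at -0.128 and -0.156. Among the named genes, 86 lost the call under the block, 85 with no filter, 85 with no variance trend and 86 without sgSCR replicate 1 or 2.

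The heat shock share difference kept its sign in all 6 alternatives (0.134 to 0.165 percentage points). The heat shock shares of the groups did not overlap, so leaving out a library could not change this sign. The differences of the other 4 shares of summed FPKM, none past its test, changed sign when 1 library was left out, over ranges of -0.956 to 0.184 percentage points for mitochondrially encoded genes, -0.438 to 0.172 for globins, -0.371 to 0.441 for ribosomal proteins and -0.0337 to 0.0299 for histones; ribosomal proteins were at -0.0417 without mitochondrially encoded genes. The cause was not tested. Genes with every pool above all clones numbered 2532 to 4608 over the alternatives, and those below 2281 to 4434. The edgeR and DESeq2 alternatives were not run, since the values are neither counts nor whole reads.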
